A study of Mus musculus with 16 samples.

Results

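The genes described here encode the proteins of the cytosolic ribosome. They were the protein-coding genes whose mouse symbol begins with Rpl or Rps followed by a number, together with the P-stalk genes Rplp0, Rplp1 and Rplp2. Symbols that begin with Rps6k, which name kinases, and symbols that contain -ps, which mark pseudogenes, were left out. The rule used names alone, and it found 85 of the 52636 genes listed. Of these, 46 encode proteins of the large (60S) subunit, 30 encode proteins of the small (40S) subunit, and 9 are paralogs or genes that carry the name without being core subunits. The low-count filter kept 83 of the 85 among 21371 genes tested, and left out Rpl10l and Rpl39l.

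RNA sequencing was performed on L3 to L6 dorsal root ganglia (DRGs), the ganglia that hold the cell bodies of sensory neurons, from male C57BL/6J mice. Mice aged 3 to 4 months received spared nerve injury (SNI), in which branches of the sciatic nerve are cut and another is left intact, or a sham operation. From 4 weeks after surgery they received saline or desipramine (DMI), a tricyclic antidepressant that inhibits noradrenaline reuptake, at 15 mg/kg i.p. 2 times a day for 3 weeks, and another passage of the study's text puts this interval at 4 months. With 4 mice and 4 libraries in each, the groups were SNI-DMI, Sham-DMI, SNI-Saline and Sham-Saline, and the labels give no mutation or transgene. The labels give spinal cord as tissue and dorsal root ganglia as cell type. The 15 sensory neuron markers summed to between 8641 and 10273 CPM (read counts scaled to library size), whereas 6 markers of spinal cord neurons summed to at most 2.96 CPM.

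Each ribosome holds 1 copy of nearly every core protein, and cells keep the synthesis of these proteins in balance. Most vertebrate ribosomal protein (RP) mRNAs begin with a C followed by a run of pyrimidines, the 5′ terminal oligopyrimidine (TOP) tract, through which LARP1 and the kinase mTOR control their translation. In sensory neurons, RP mRNAs are found in axons as well as in cell bodies, and local translation in the axon is part of the response to injury.

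The promoter windows below surround the annotated start of genes that the results name. Of these, 5 have a tract and 4 have none. A tract was here any run of at least 6 pyrimidines that touches the 5 bases on either side of that start. It need not begin with C or at the first base of the mRNA. Windows run from 10 bases before the RefSeq transcription start to 20 bases from it, on the strand of the gene, in build GRCm38.p6. Capitals mark the tract.
Rpl28, chr7:4792955-4792984, plus strand: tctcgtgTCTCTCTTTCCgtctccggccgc
Rpl38, chr11:114668570-114668599, plus strand: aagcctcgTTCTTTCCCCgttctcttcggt
Rps26, chr10:128626487-128626516, minus strand: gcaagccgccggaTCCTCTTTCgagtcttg
Rplp2, chr7:141447641-141447670, plus strand: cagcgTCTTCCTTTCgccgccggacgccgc
Rpl15, chr14:18270967-18270996, minus strand: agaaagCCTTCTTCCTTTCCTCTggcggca
Rps13, chr7:116334171-116334200, minus strand: caaacgtcggtgagtggcgtcacttcctgt
Rps15, chr10:80292421-80292450, plus strand: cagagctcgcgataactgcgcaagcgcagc
Rpl27, chr11:101442235-101442264, plus strand: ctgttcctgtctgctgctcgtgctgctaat
Rpl23, chr11:97782420-97782449, minus strand: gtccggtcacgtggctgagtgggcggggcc

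RefSeq held 77 promoter windows for 65 of the 85 genes. A tract was present in 34 of the 77 windows (44.2%), against 21% of all 32841 promoters of the same length. The letters CCGGAAG, searched on both strands from 250 bases before the start to 50 after it, occurred in 33.8% of the RP promoters and in 8.86% of all promoters. They resemble the core of ETS factor motifs. AAGATGG, part of the YY1 motif and searched in the same way, occurred in 15.6% against 6.34%. TATAAA occurred in 9.09% against 13.6%. The annotated start lay within 100 bases of the GENCODE gene start for 55 of the windows.

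The level of the genes differed widely among themselves. On the scale of CPM per kilobase of transcript, averaged over the 16 libraries, the core genes ran from 10.4 for Rpl17 to 405 for Rplp1, with a median of 99.6. Rps15 followed at 392 and Rpl4 at 277. Rplp1 encodes a P-stalk protein that binds elongation factors at the GTPase centre, Rps15 a protein of the 40S head, and Rpl4 a protein that lines the exit tunnel. The median was 113 CPM per kilobase for 40S genes and 95.3 for 60S genes. Of the 76 core genes, 38 lay above 100 CPM per kilobase and 3 lay below 20, namely Rps15a, Rpl24 and Rpl17. The value of Rps15a rests on a representative transcript of 5179 bases; without the division by length it stood at 82.8 CPM, near the core median of 88.1 CPM. Reads that align to several places do not enter these counts (5.71% to 6.40% of the reads per library), and RP genes have many processed pseudogenes, so the level of a gene with close copies may be underestimated. Rpl24 shares 47.0% of its exonic bases with the overlapping Gm28037 and Rpl13a shares 29.4% with Gm45713 on the same strand, which makes their levels uncertain.

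**Figure D1:**
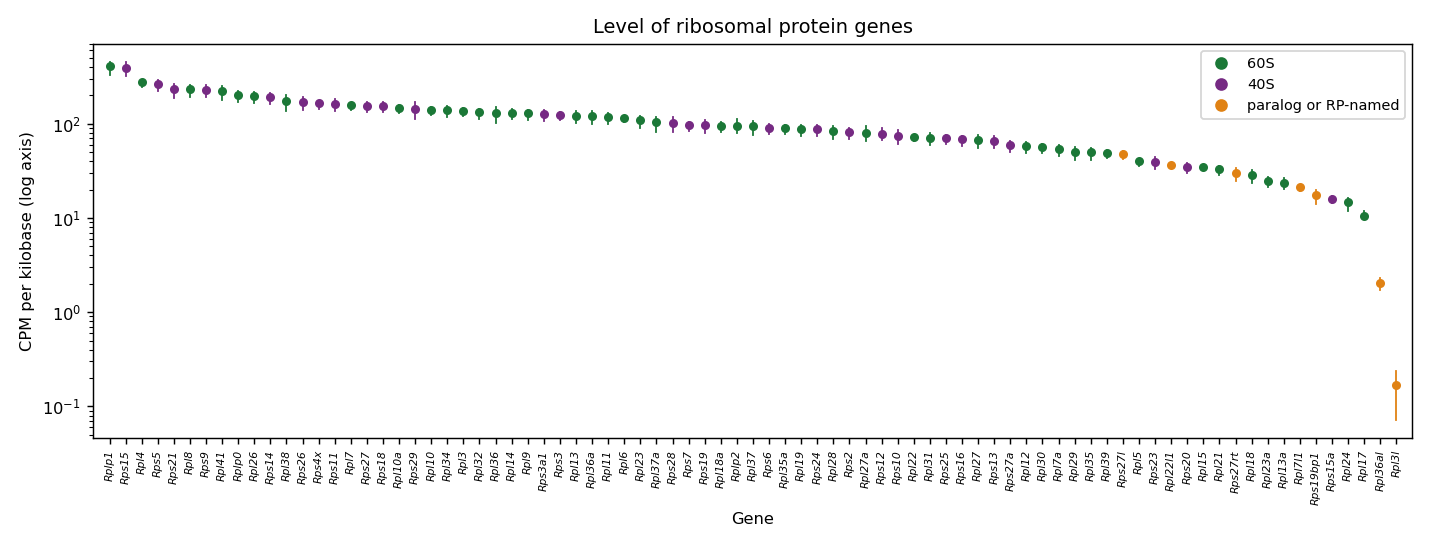
Level of 81 of the 83 tested genes in CPM per kilobase of transcript, on a log axis, from highest to lowest. Points are means of 16 libraries, lines span the 4 group means, and colours give the subunit. Core genes run from 405 for Rplp1 to 10.4 for Rpl17, and the paralogs Rpl36al and Rpl3l lie lowest at 2.03 and 0.169.

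All 7 tested paralogs or RP-named genes lay below the median of the core genes, from 0.169 CPM per kilobase for Rpl3l to 48.1 for Rps27l. Rpl10l, a testis paralog of Rpl10, had no read in any of the 16 libraries; a count of 0 allows up to 3 reads per library. Rpl39l, the testis paralog of Rpl39, had between 0 and 8 reads per library. Rpl3l, the striated-muscle paralog of Rpl3, had 2 to 57 reads per library and 0.169 CPM per kilobase, against 136 for Rpl3. Rpl22l1, the paralog of Rpl22, stood at 36.4 CPM per kilobase and Rpl22 itself at 72. Rpl36al, of which 24.5% of exonic bases overlap Gm49383, stood at 2.03 CPM per kilobase, against 120 for Rpl36a.

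The share of gene reads that fell on the 85 genes gives their level per mouse. The 4 Sham-Saline libraries had 0.621%, 0.719%, 0.621% and 0.690% of gene reads on RP genes. The SNI-Saline libraries had 0.799%, 0.814%, 0.791% and 0.754%. The Sham-DMI libraries had 0.892%, 0.707%, 0.787% and 0.895%, and the SNI-DMI libraries 0.859%, 0.867%, 0.886% and 0.859%. Every SNI-Saline and SNI-DMI library was above every Sham-Saline library, whereas Sham-DMI replicate 2 lay within the range of Sham-Saline. SNI-DMI libraries were all above SNI-Saline libraries.

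The mean share was 0.663% ± 0.0499 (SD, n = 4) in Sham-Saline. It was 0.790% ± 0.0257 after SNI with saline (19.2% above the Sham-Saline mean), 0.820% ± 0.0906 with DMI after sham surgery (23.8% above) and 0.868% ± 0.0124 with both (31.0% above). No test was made on this sum. The subunits kept nearly the same proportion: reads on 60S genes were 1.46 to 1.52 times those on 40S genes in all 16 libraries. Sham-Saline mice had a ratio of 1.5 ± 0.0149 (SD, n = 4), SNI-DMI mice had 1.47 ± 0.00523, and these groups did not overlap. The -ps rows that the rule left out numbered 282, of which 6 are annotated as protein coding. They took 0.0448% to 0.0527% of gene reads in Sham-Saline and 0.0637% to 0.0662% in SNI-DMI.

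**Figure D2:**
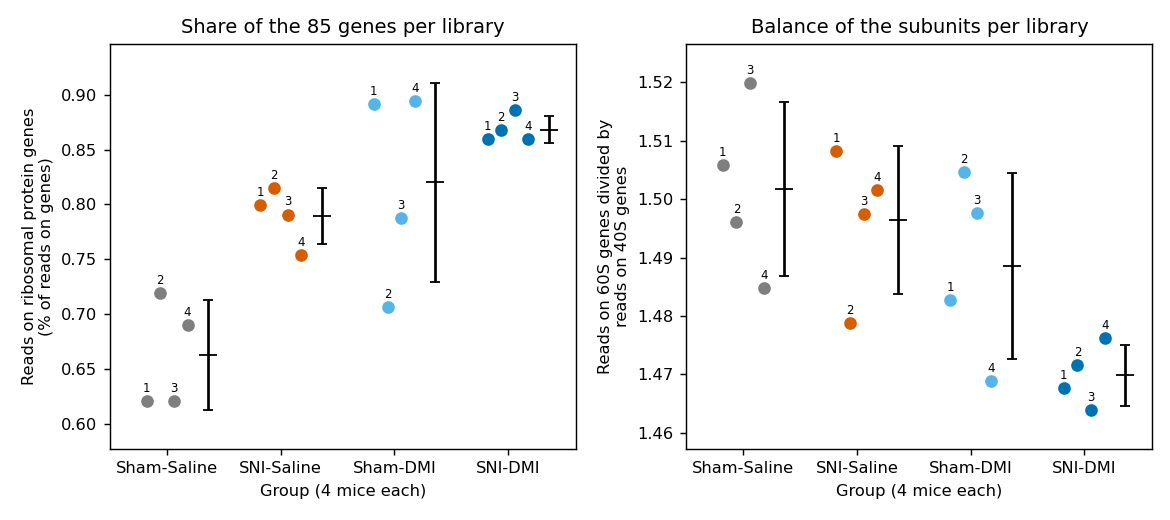
Left, percent of gene reads on the 85 genes in each library; right, reads on 60S genes divided by reads on 40S genes. Points are libraries with their replicate number, bars are mean ± SD of 4 mice, and neither axis starts at 0. Sham-DMI replicate 2 (0.707%) lies among the Sham-Saline libraries (0.621% to 0.719%), and the SNI-DMI ratios (1.46 to 1.48) lie below all Sham-Saline ratios.

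Technical measures moved with this share and their part in it was not tested. Reads on genes numbered 41194238 to 73920332 per library. Reads that fell on no gene made up 8.67% to 9.44% of the total in Sham-Saline and 8.79% in Sham-DMI replicate 2, but 7.10% to 8.04% in the remaining Sham-DMI libraries and 7.42% to 8.38% in SNI-DMI. SNI-Saline spanned 7.73% to 9.14%. The numbers attached to the sample names run from 17 to 24 in DMI groups, 33 to 36 in SNI-Saline and 37 to 40 in Sham-Saline, and what these numbers stand for is not given in the sources used here. Each group holds its own block of these numbers. Among mice given DMI, those with sham surgery end at 20 and injured ones start at 21. Whatever the numbers mark therefore cannot be told apart from drug, nor from surgery within either treatment. In a bulk tissue, fewer cells of a type and less RNA per cell cannot be told apart either.

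Within groups the genes moved as a block. In Sham-DMI, 78 of 83 tested genes were lowest in replicate 2. In Sham-Saline, 82 of 83 genes were lowest in replicate 1 or replicate 3, in 34 and 48 genes respectively. The deviations of pairs of RP genes from their group means had a median correlation of 0.770 over the 16 libraries, and 98.4% of the 3403 pairs had a positive one; pairs share library depth and scaling. A single component held 60.7% of the within-group variance of the 83 genes. The median within-group SD of log2 CPM was 0.110 for RP genes, 0.140 for all tested genes and 0.0894 for tested genes of at least 20 CPM.

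**Figure D3:**
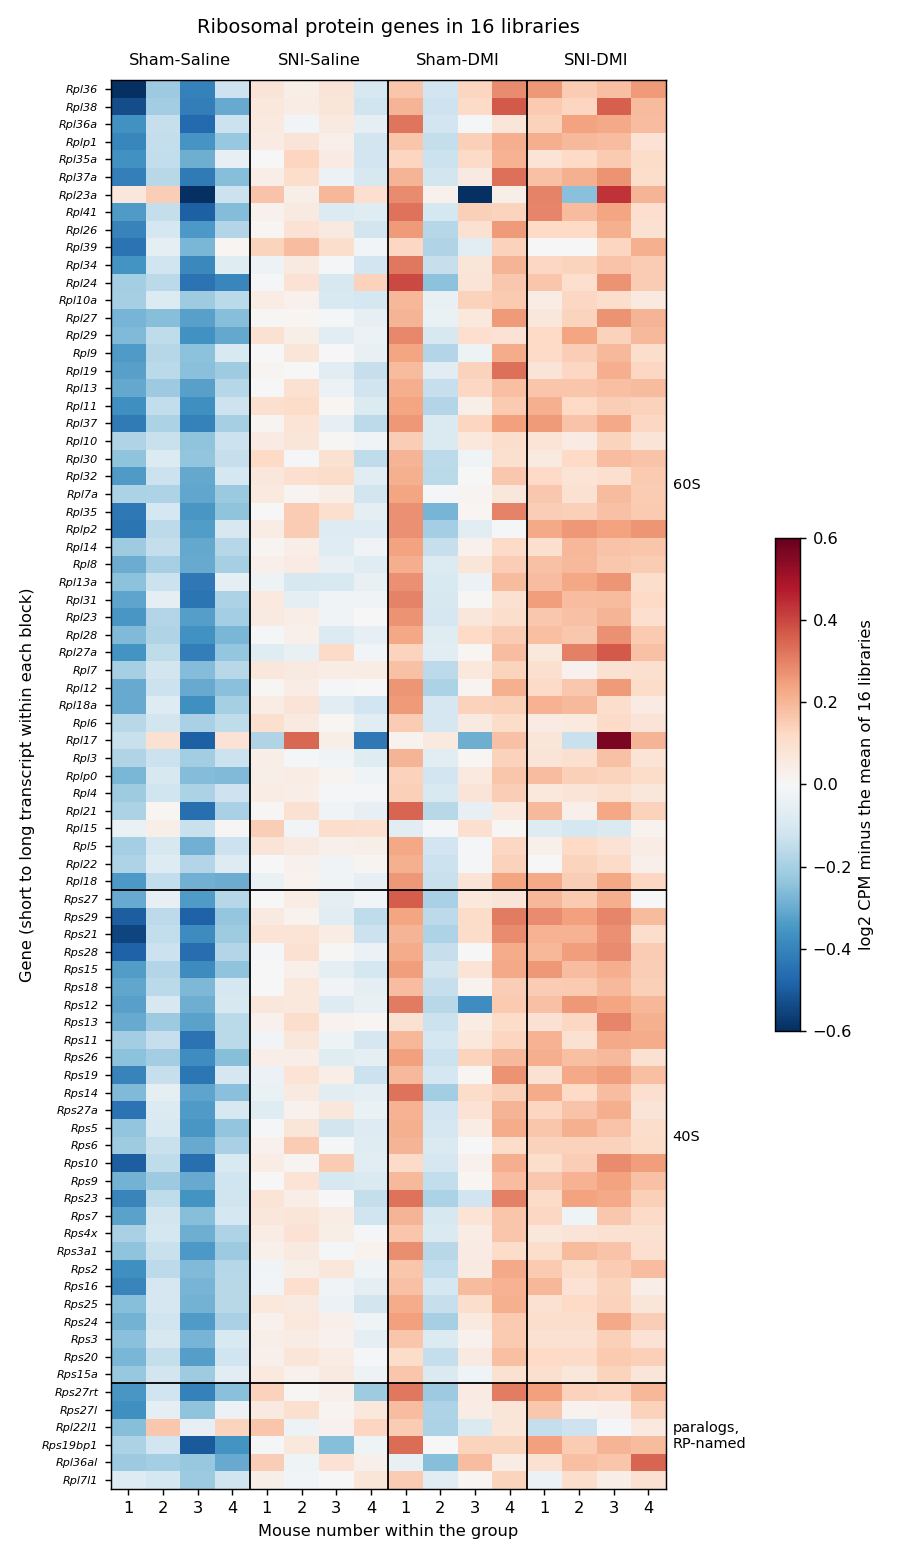
Log2 CPM of 80 of the 83 tested genes (rows; Rpl3l is not drawn for its low counts) in 16 libraries (columns), minus the mean of each gene over all libraries. Rows run from short to long transcripts within 60S, 40S and paralog or RP-named blocks. Nearly every row is low in Sham-Saline and high in SNI-DMI, Sham-DMI replicate 2 is low for 78 of the 83 tested genes among its group, and Rpl15, Rpl17, Rpl23a and Rpl22l1 depart from the pattern.

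The effect of injury in saline-treated mice was examined in SNI-Saline versus Sham-Saline. Of 83 tested RP genes, 64 were higher after SNI and 0 were lower (edgeR quasi-likelihood test, Benjamini-Hochberg adjusted p under 0.1 over all tested genes), where 5.85% of all tested genes were called higher and 6.18% lower. The changes were small. All 83 log2 fold changes were positive, as were 49.9% of those of all genes, with a median of 0.24 (17.9% on the linear scale), against -0.00 for all genes. They ran from 0.06 in Rpl17 to 0.37 in Rpl38. The call covered 36 of 46 genes of the 60S subunit (median 0.24) and 26 of 30 of the 40S subunit (median 0.24). It also covered 2 of 7 tested paralogs or RP-named genes. At an unadjusted p under 0.05, 77 were higher and 0 lower, where 23% of all genes passed in either direction. DESeq2 called 72 higher and 0 lower, where 7.97% of all genes were called higher. Under the cut-offs of the study, an unadjusted p under 0.05 with a log2 fold change of at least 0.32, only 7 RP genes passed, where 3.64% of all genes did.

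Rps13, a 40S protein at the interface of the subunits, was at 31.2, 33.1, 30.8 and 34.4 CPM in Sham-Saline and 39.2, 41.4, 39.1 and 38.9 CPM in SNI-Saline. Every injured mouse was higher (log2 fold change 0.29 ± 0.061, SE; edgeR adjusted p = 0.0159).

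Rpl27, a 60S protein, went from 40.6, 41.2, 39.2 and 41.3 CPM in Sham-Saline to 49.4, 49.5, 48.9 and 47.5 CPM in SNI-Saline. It had the smallest relative spread in Sham-Saline of the 83 tested RP genes, with a coefficient of variation of 2.28%, and its log2 fold change was 0.27 ± 0.059 (adjusted p = 0.0202). Rpl23, a 60S protein that can bind Mdm2, was at 90.6, 102, 91.9 and 100 CPM in Sham-Saline and at 120, 119, 114 and 116 CPM in SNI-Saline. Its groups did not overlap, and its log2 fold change was 0.28 ± 0.063 (adjusted p = 0.0207). Rpl8, a 60S protein near the peptidyl transferase centre, was at 190, 204, 189 and 203 CPM and then at 238, 241, 226 and 222 CPM, a log2 fold change of 0.24 ± 0.055 (adjusted p = 0.0235).

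Groups did not overlap, with SNI-Saline the higher, in 59 of 83 genes, against 7.67% of all tested genes. The 19 genes not called higher included Rpl15, Rpl22, Rpl3 and Rpl10a, all with precise estimates between 0.12 and 0.14. They also included Rpl23a and Rpl17, whose SEs were 0.204 and 0.168. The number called rested on single libraries. Leaving out replicate 3 or replicate 1 of Sham-Saline gave 15 and 30, where 1.59% and 3.57% of all genes were called higher. Leaving out replicate 2 or replicate 1 of SNI-Saline gave 23 and 27, where 2.08% and 2.03% were. Leaving out Sham-DMI replicate 2 gave 74, where 7.94% of all genes were called. The median lay between 0.22 and 0.28 in all 16 such fits. Markers of macrophages moved with the comparison: 5 of 9 were called higher, the list summed to 105 to 126 CPM in Sham-Saline and 138 to 240 CPM in SNI-Saline, and their part in the change of RP genes was not tested.

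The effect of DMI without nerve injury was examined in Sham-DMI versus Sham-Saline, which shares the Sham-Saline libraries with the comparison above. Here 75 of 83 genes were higher with DMI and 0 were lower, where 11.6% of all tested genes were called higher and 11.9% lower. The median log2 fold change was 0.31 (23.9%), against -0.02 for all genes, and 81 of 83 changes were positive, where 46.7% of all genes had a positive change. The 60S genes (42 of 46 called, median 0.32) and the 40S genes (29 of 30 called, median 0.31) had close medians. Of 7 tested paralogs or RP-named genes, 4 were called. Largest was Rpl38, a small 60S protein, with 0.51 ± 0.089 (adjusted p = 0.00228). No gene was lower at an unadjusted p under 0.05, and DESeq2 called 75 higher and 0 lower, where 14% of all genes were called higher. Under the cut-offs of the study 39 passed, where 3.93% of all genes did.

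Rpl27 stood at 56.7, 47.9, 51.4 and 58.6 CPM in Sham-DMI. All 4 were above the Sham-Saline maximum of 41.3 CPM, with a log2 fold change of 0.40 ± 0.059 (adjusted p = 0.00176). Rpl28, a 60S protein of the subunit surface, was at 76.4, 81.2, 71.4 and 76.0 CPM in Sham-Saline and at 108, 87.3, 99.9 and 102 CPM in Sham-DMI. Replicate 2 was again the lowest of its group but still above all controls (log2 fold change 0.38 ± 0.059, adjusted p = 0.00176). Rps15 was at 154, 172, 150 and 164 CPM and then at 231, 180, 206 and 228 CPM, a log2 fold change of 0.40 ± 0.067 (adjusted p = 0.00212).

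Rps26, a 40S protein at the mRNA exit channel, was at 97.1, 99.5, 89.0 and 96.5 CPM in Sham-Saline and at 136, 105, 126 and 132 CPM in Sham-DMI. Its groups did not overlap, with a log2 fold change of 0.39 ± 0.066 (adjusted p = 0.00212). Rpl8 was at 271, 220, 246 and 258 CPM in Sham-DMI, all above its controls (0.34 ± 0.055, adjusted p = 0.00194).

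Only 36 of 83 genes had Sham-DMI wholly above Sham-Saline, where 8.62% of all tested genes did, and in 46 genes replicate 2 lay within the range of Sham-Saline. Without that library the median was 0.41 and 78 genes were called, where 15.1% of all genes were. Nerve injury genes also moved here: 5 of 7 were called higher in uninjured mice with DMI, among them Ecel1, an endopeptidase induced by axotomy (log2 fold change 1.24 ± 0.257, adjusted p = 0.00492), and their part in the result was not tested. Neutrophil markers fell in this comparison (6 of 8 called lower; summed 10.7 to 40.2 CPM in Sham-Saline and 3.85 to 18.6 CPM in Sham-DMI), and whether their change had a part in that of RP genes was not tested.

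The effect of DMI in injured mice was examined in SNI-DMI versus SNI-Saline, which shares the SNI-Saline libraries with the injury comparison. The test called 3 of 83 genes higher (3.61%), where 1.32% of all tested genes were called higher, and 0 lower, where 1.61% were. The median log2 fold change was 0.15 (11.1%), against -0.00 for all genes, and 80 of 83 changes were positive, where 49.0% of all genes had a positive change. Changes ran from -0.15 in Rpl15 to 0.29 in Rps29. At an unadjusted p under 0.05, 35 were higher and 1, Rpl15, was lower, where 18.5% of all genes passed in either direction. DESeq2 called 19 higher, where 4.15% of all genes were called higher. It called Rpl15 lower (DESeq2 adjusted p = 0.080), where 1012 of 21371 genes were called lower. No RP gene passed the cut-offs of the study, where 1.93% of all genes did. SNI-DMI lay wholly above SNI-Saline in 52 genes, against 7.33% of all tested genes.

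Rpl28 was at 91.4, 93.8, 86.8 and 88.8 CPM in SNI-Saline and at 104, 103, 111 and 103 CPM in SNI-DMI. Its log2 fold change was 0.22 ± 0.058 (adjusted p = 0.0841). The groups were apart. Rps15 was at 194, 198, 187 and 181 CPM and then at 232, 221, 226 and 215 CPM (0.24 ± 0.067, adjusted p = 0.0973). These groups did not overlap either, yet both calls sat near the threshold. Neutrophil markers moved with this comparison too: all 8 had negative changes (median -1.44), 2 were called lower, and they summed to 15.8 to 51.2 CPM in SNI-Saline and 4.45 to 14 CPM in SNI-DMI. Their part in the result was not tested.

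The count depended on what entered the fit. With the 8 libraries of this comparison alone, edgeR called 40 genes higher, where 4.42% of all genes were called. Leaving out replicates 1, 2, 3 and 4 of Sham-DMI in turn gave 19, 20, 1 and 2, where 4.05%, 3.19%, 0.806% and 1.33% of all genes were called higher. Leaving out those of Sham-Saline gave 6, 0, 5 and 0, where 1.96%, 0.443%, 1.27% and 0.443% were. Leaving out those of SNI-Saline gave 0, 10, 0 and 0, where 0.0%, 2.64%, 0.0% and 0.152% were. Leaving out those of SNI-DMI gave 0, 0, 0 and 1, where 0.0%, 0.0%, 0.0% and 1.01% were, so in 5 of these fits no gene at all was called higher.

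**Figure D4:**
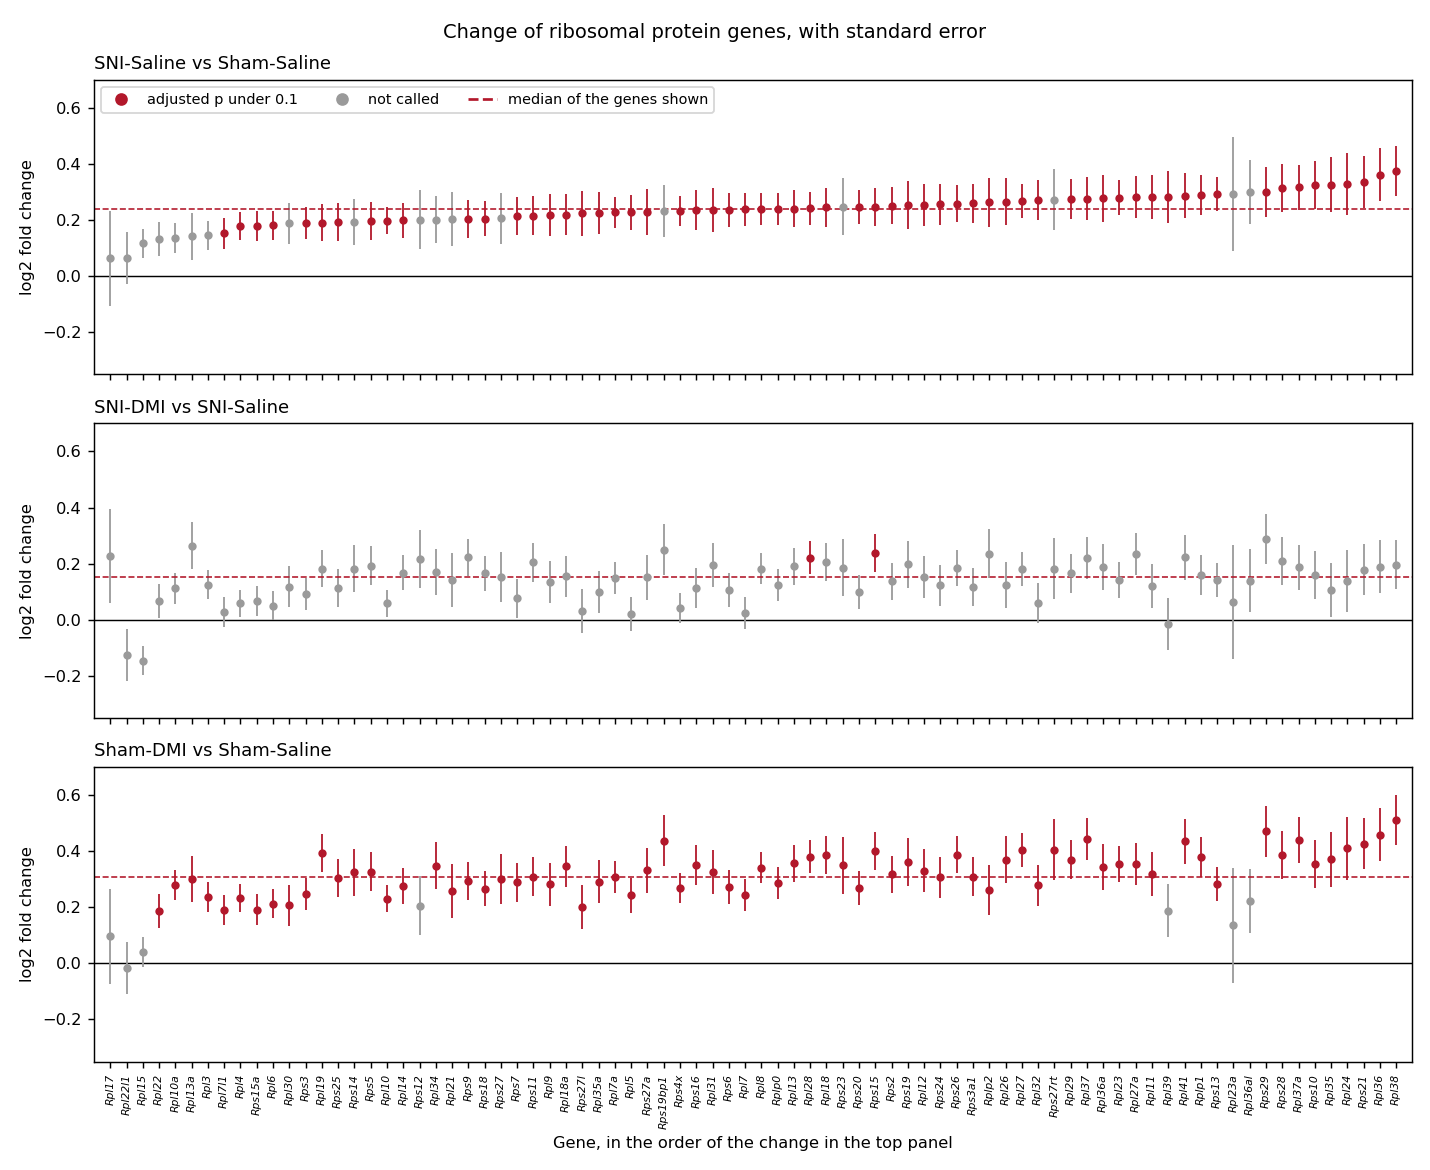
Log2 fold change of 80 of the 83 tested genes in 3 comparisons, with standard errors, in the order of the injury effect (Rpl3l, whose SEs exceed 0.6, is not drawn). Red points passed an adjusted p under 0.1, and dashed lines are medians. Most genes are red for SNI-Saline versus Sham-Saline (62) and Sham-DMI versus Sham-Saline (73), only 2 are red for SNI-DMI versus SNI-Saline, and Rpl15, Rpl17 and Rpl22l1 lie near 0 or below in at least 1 panel.

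Whether DMI acted differently in sham and injured mice was tested as the difference between both DMI effects. The difference was negative in 80 of 83 genes, with a median of -0.17, against 0.01 for all genes, of which 51.3% were positive. edgeR called 0 RP genes and 0.0% of all genes, and DESeq2 called 0 RP genes, where 0.0562% of all genes were called higher. At an unadjusted p under 0.05, 21 RP genes were lower and 0 higher, where 7.92% of all genes passed in either direction. The smallest adjusted p was 0.619. A difference in the effect of DMI on RP genes was therefore not detectable in 4 mice per group, and the median SE of 0.103 per gene shows how wide the estimates were.

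Set side by side, the means of the groups formed the same order in most genes. Sham-Saline had the lowest mean in 80 of 83 genes and SNI-DMI the highest in 75. The order Sham-Saline, SNI-Saline, Sham-DMI, SNI-DMI held in 69. In the share of reads, the SNI-Saline mean lay within 1 SD of the Sham-DMI mean, and so did the SNI-DMI mean.

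Of the P-stalk genes, Rplp0 and Rplp1 kept this order of group means, whereas Rplp2 had nearly equal means in SNI-Saline and Sham-DMI. The P-stalk is the flexible arm of the 60S subunit, made of 1 Rplp0 and copies of Rplp1 and Rplp2, that recruits elongation factors. Rplp0 was at 233 ± 14.3 CPM (SD, n = 4) in Sham-Saline and 284 ± 24.4 CPM in Sham-DMI, and after SNI at 275 ± 5.97 CPM with saline and 299 ± 6.41 CPM with DMI. All 3 were called after injury, with log2 fold changes of 0.24 to 0.29, and all 3 in Sham-DMI versus Sham-Saline, with 0.26 to 0.38. None was called in SNI-DMI versus SNI-Saline, where their log2 fold changes were 0.12 to 0.24 and the smallest edgeR adjusted p was 0.166. Rplp1 moved from 165 ± 13.3 CPM in Sham-Saline to 202 ± 11.5 in SNI-Saline and 215 ± 23 in Sham-DMI. Rplp2 was at 76.2 ± 8.27, 91.5 ± 7.20 and 91.4 ± 13.2 CPM in the same groups.

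A few core genes departed from the rest, and they were picked for description after their values were seen. Rpl15, a 60S protein, was at 64.5, 68.0, 60.6 and 66.7 CPM in Sham-Saline and 73.5, 65.6, 71.5 and 71.3 CPM in SNI-Saline. It was at 63.6, 65.8, 71.3 and 66.7 CPM in Sham-DMI and 62.9, 61.8, 62.6 and 67.4 CPM in SNI-DMI. All 4 groups overlapped in part, and none of its changes was called by edgeR, with adjusted p of 0.185, 0.151 and 0.648 for injury, DMI after SNI and DMI after sham. Its promoter window above holds a tract of 17 bases, the longest of those shown. Rpl39, Rps12, Rpl17 and Rpl23a were not called in Sham-DMI versus Sham-Saline either, with SEs of 0.09 to 0.21. Of the exonic bases of Rpl23a, 59.7% overlap Tlcd1 on the opposite strand. Exons of 17 of the 85 genes overlap another counted gene on the opposite strand. Whether reads were counted by strand is not given in the sources used here. Rps12 was at 35 CPM in Sham-DMI replicate 3 and at 40.4 to 56.3 CPM in the others of that group.

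Among the paralogs and RP-named genes that are not core subunits, Rps27l, Rpl7l1, Rps19bp1 and Rps27rt were called in Sham-DMI versus Sham-Saline. Rps27l, a p53-regulated paralog of Rps27, had log2 fold changes of 0.22 ± 0.079 after injury (adjusted p = 0.0967) and 0.20 ± 0.079 with DMI after sham (adjusted p = 0.0926). Rpl7l1 had 0.15 ± 0.054 (adjusted p = 0.0959) and 0.19 ± 0.054 (adjusted p = 0.0221). Rps19bp1, whose product binds Rps19 and the deacetylase Sirt1, was at 12.7, 13.4, 10.2 and 11.3 CPM in Sham-Saline and at 18.3, 14.5, 15.9 and 15.9 CPM in Sham-DMI. It showed 0.44 ± 0.092 (adjusted p = 0.00528), the largest change of these called genes. Rps27rt, an intronless copy of Rps27, had 0.41 ± 0.109 (adjusted p = 0.0179).

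Rpl22l1 had 0.07 ± 0.092, -0.13 ± 0.092 and -0.02 ± 0.092 in the injury, DMI-after-SNI and DMI-after-sham comparisons, and none was called. Rpl36al was not called in any of them, with 0.30 ± 0.114, 0.14 ± 0.112 and 0.22 ± 0.114. Rpl3l had a log2 fold change of -1.18 ± 0.703 in Sham-DMI versus Sham-Saline (adjusted p = 0.273) on a few reads per library.

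Ribosomal proteins with other names gave similar values. Fau, which encodes a ubiquitin-like protein fused to the 40S protein eS30, was higher after injury (0.31 ± 0.070, adjusted p = 0.0224) and in Sham-DMI (0.41 ± 0.070, adjusted p = 0.00225). Rack1, the scaffold protein of the 40S head, was higher after injury (0.17 ± 0.058, adjusted p = 0.0922) and in Sham-DMI (0.24 ± 0.058, adjusted p = 0.0104). Neither was called in SNI-DMI versus SNI-Saline. Rpsa, a 40S protein added to this set after values were seen, was higher after injury (0.23 ± 0.072, adjusted p = 0.0656) and in Sham-DMI (0.33 ± 0.072, adjusted p = 0.00616).

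Other genes with a TOP tract had smaller medians. Whether they differed from RP genes was not tested, and the lists were not matched by length. The 18 mRNAs described first have a median transcript of 1928.5 bases, against 878 for RP genes. Other genes of at least 20 CPM from 1500 to 2500 bases had a median log2 fold change of 0.07 after injury. They had 0.05 with DMI after SNI and 0.11 with DMI after sham. For the counts that follow, 5.85% of all genes were called higher and 6.18% lower after injury, 1.32% and 1.61% with DMI after SNI, and 11.6% and 11.9% with DMI after sham. Of 18 other TOP mRNAs, which encode translation factors and related proteins, 5 were higher and 0 lower after injury (median 0.11), 1 was higher and 0 lower with DMI after SNI (median 0.06), and 11 were higher and 1 lower with DMI after sham (median 0.17). Eef1b2, a subunit of the exchange factor for elongation factor 1A, was higher after injury (0.30 ± 0.059, adjusted p = 0.0135) and with DMI after sham (0.34 ± 0.059, adjusted p = 0.00225). Vim, the intermediate filament vimentin, had 0.46 ± 0.090 after injury (adjusted p = 0.0129). Pabpc1, the poly(A) binding protein, was the 1 called lower with DMI after sham, at -0.18. Of 9 snoRNA host genes with TOP tracts, 3 were higher after injury and 3 with DMI after sham. Snhg8 was among them in both (0.42 ± 0.137 and 0.50 ± 0.138, edgeR adjusted p = 0.0749 and 0.0190). The host genes are short, with a median transcript of 709 bases. Their medians were 0.21 after injury, 0.01 with DMI after SNI and 0.23 with DMI after sham.

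RP genes with and without a tract in the RefSeq window had close medians. After injury the median log2 fold change was 0.23 over 32 tested genes with a tract and 0.25 over 31 without. In Sham-DMI versus Sham-Saline both medians were 0.31. With DMI after SNI they were 0.16 and 0.14. This split rests on annotated starts, and 55 of the 77 windows had a start within 100 bases of the GENCODE gene start. Since most vertebrate RP mRNAs begin with a TOP tract, genes without a tract in the window may still have one. The close medians therefore cannot show whether the changes depended on the TOP tract, which was not tested.

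Factors that work with the ribosome had calls in both directions, and their transcripts are longer than those of RP genes. Median transcripts were 2208 bases for the initiation factors and 2701 bases for the biogenesis factors below. Of 31 translation initiation factors, 4 were higher and 1 lower after injury, 2 higher and 2 lower with DMI after SNI, and 10 higher and 3 lower with DMI after sham. Eif3d, a cap-binding subunit of eIF3, was higher after injury (0.22 ± 0.050, adjusted p = 0.0212) and with DMI after sham (0.30 ± 0.050, adjusted p = 0.00201). Eif3k, another eIF3 subunit, was higher with DMI after sham (0.42 ± 0.064, adjusted p = 0.00176). With DMI after SNI, Eif5b was higher (0.30 ± 0.073, edgeR adjusted p = 0.0734) and Eif5 lower (-0.26 ± 0.068, edgeR adjusted p = 0.0802). Eif5 also had the lowest log2 fold change of this list with DMI after sham (-0.27).

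Of 42 ribosome biogenesis factors, 6 were higher and 1 lower after injury, 3 higher and 0 lower with DMI after SNI, and 12 higher and 1 lower with DMI after sham, with medians of 0.06, 0.03 and 0.08. Nhp2, a protein of box H/ACA snoRNPs that guide pseudouridylation of rRNA, was higher after injury (0.26 ± 0.069, adjusted p = 0.0365) and with DMI after sham (0.32 ± 0.069, adjusted p = 0.00559). Rrp9, a component of the U3 snoRNP, was higher with DMI after SNI (0.32 ± 0.061, adjusted p = 0.0622). Other genes of at least 20 CPM from 2500 to 4000 bases had medians of -0.01, 0.02 and 0.02 in the same comparisons.

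Of 16 genes of the mTOR pathway and TOP control, 0 were higher and 5 lower after injury (median -0.14), 0 higher and 1 lower with DMI after SNI (median -0.02), and 0 higher and 5 lower with DMI after sham (median -0.12), where 6.18%, 1.61% and 11.9% of all genes were called lower. Their transcripts are long, with a median of 5901 bases, and other genes of at least 20 CPM over 4000 bases had medians of -0.12, -0.05 and -0.12 in the same comparisons. Deptor, an inhibitor of mTOR, fell after injury (-0.30 ± 0.064, adjusted p = 0.0176) and with DMI after sham (-0.20 ± 0.064, adjusted p = 0.0362). Rictor, the defining subunit of mTORC2, fell after injury (-0.33 ± 0.101, adjusted p = 0.0620). Rps6kb1, the S6 kinase, fell with DMI after SNI (-0.30 ± 0.070, adjusted p = 0.0676) and after sham (-0.28 ± 0.070, adjusted p = 0.0129). Of 6 p53 and ribosomal stress genes, which respond when free Rpl5 and Rpl11 block Mdm2, none was called in any comparison by edgeR, with unadjusted p under 0.05 in 1, 0 and 1 of them.

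Mitochondrial RP genes, whose proteins form the separate ribosome of mitochondria, had 23 of 76 higher after injury (median 0.16), 7 with DMI after SNI (median 0.11) and 61 with DMI after sham (median 0.25), and 0 lower in each, where 5.85%, 1.32% and 11.6% of all genes were called higher. Their median transcript is 1302 bases. Of genes other than cytosolic RP genes, of at least 20 CPM and 1000 to 1500 bases, 33.2%, 5.78% and 62.2% were called higher. The medians of that class in the same comparisons were 0.15, 0.10 and 0.20.

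RP genes share a property that the naming rule did not use: their transcripts are short. The median representative transcript was 878 bases over the 83 tested genes, from 345 for Rps27 to 5179 for Rps15a, against 2478 over all tested genes. In all 3 comparisons the changes of the other tested genes fell with transcript length. After injury, other genes of at least 20 CPM had a median log2 fold change of 0.24 up to 600 bases (76 genes), 0.20 from there to 1000 bases (307 genes), and -0.12 over 4000 bases (3241 genes). The RP genes of the first of these classes had 0.29 (20 genes) and those of the second 0.24 (33 genes).

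With DMI after sham, the same other genes had 0.34, 0.29 and -0.12, and the RP genes of both short classes 0.38 and 0.33. With DMI after SNI, the other genes had 0.16, 0.13 and -0.05, and the RP genes 0.18 and 0.16. Of the other abundant genes up to 600 bases, 64.5% were called higher after injury and 86.8% with DMI after sham, and of the RP genes of that length 75.0% and 85%. RP genes from 1000 to 1500 bases (19 genes) and from 1500 to 2500 bases (7 genes) had medians above other abundant genes of their length. After injury the medians were 0.24 and 0.15 in the first class, and 0.19 and 0.07 in the second. With DMI after sham they were 0.31 and 0.20, then 0.24 and 0.11. With DMI after SNI they were 0.15 and 0.10, then 0.065 and 0.054, so the second class was close.

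**Figure D5:**
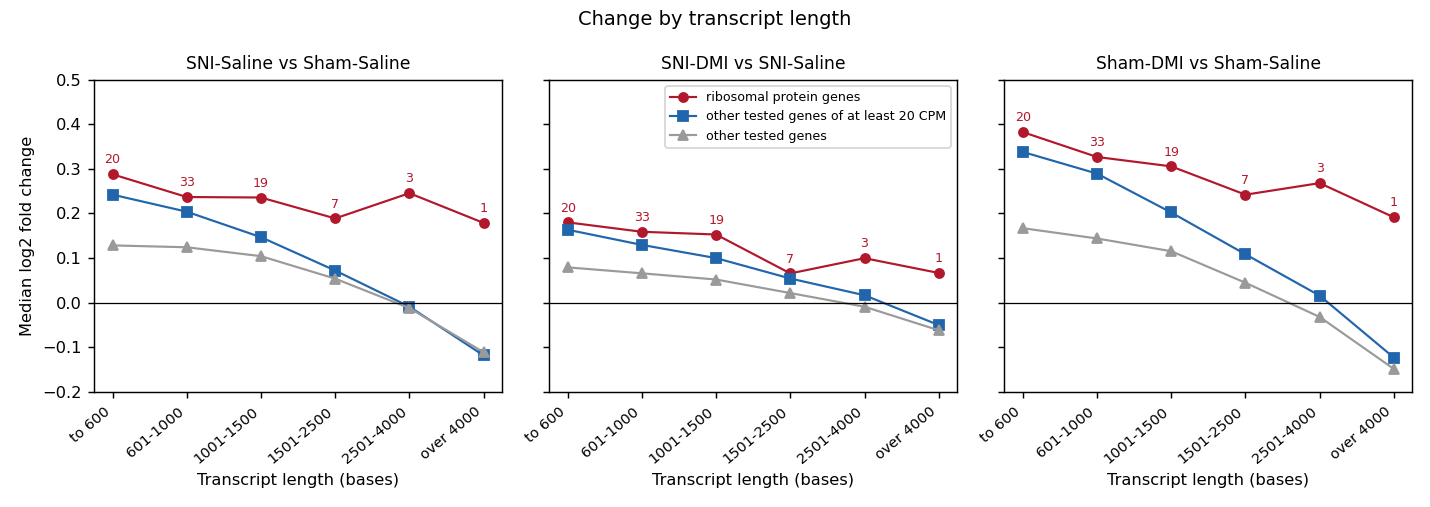
Median log2 fold change by length of the representative transcript for RP genes (red, number of genes above each point), other tested genes of at least 20 CPM (blue) and all other tested genes (grey). In each comparison the other genes fall from above 0 in short transcripts to below 0 over 4000 bases (-0.12, -0.05 and -0.12 for the abundant ones), and the RP genes stay above 0 in every class, with only 3 and 1 genes in the last 2.

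The counts depended on whether length was taken into account. When the trends of each library on GC content and exon length were removed, RP genes called higher numbered 26 after injury, where 3.96% of all genes were called, 0 with DMI after SNI, where 0.234% were, and 64 with DMI after sham, where 10.1% were. Medians were 0.16, 0.09 and 0.22. When length and GC content of 1 representative transcript per gene were used instead, a choice made after seeing the data, the numbers were 7, 0 and 35 against 1.9%, 0.145% and 7.03% of all genes, with medians of 0.11, 0.06 and 0.14, and 82, 76 and 78 of 83 changes positive. Among the named genes, Rpl23 kept its call for injury under all 14 alternatives, whereas Rpl27 lost it in 4, Rps13 and Rpl8 each in 2.

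Among the 83 RP genes the changes also ordered by length and composition. Spearman's rho between transcript length and log2 fold change, over 83 genes that share the same 8 libraries per comparison, was -0.44 after injury, -0.27 with DMI after SNI and -0.47 with DMI after sham. For GC content it was 0.20, 0.51 and 0.43, and for mean CPM -0.19, -0.11 and -0.01. Rpl15 and Rpl22l1, at 43.2% and 40.6% GC, lie at the low end of GC content, and Rpl38 and Rpl36, at 59.1% and 60.8%, at the high end. Rps20 and Rpl5, at 41.3% and 42.7% GC, are also at the low end. Their log2 fold changes were 0.25 and 0.23 after injury, where the RP median was 0.24. They were 0.10 and 0.02 with DMI after SNI (median 0.15), and 0.27 and 0.24 with DMI after sham (median 0.31). Both genes were called after injury and with DMI after sham.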

How the data were processed

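Bulk RNA-seq of DRGs was analysed in 16 libraries (4 groups, 4 mice each) made with a stranded mRNA kit. The authors deposited raw counts per gene for each library; per the labels, reads were aligned to mm10 with HISAT2 and counted with HTSeq (versions and use of strand not given in the sources used here). The 5 summary lines per file (reads on no gene, ambiguous, low quality, unaligned, not unique) stayed out of library sizes; 79.6% to 81.2% of reads fell on genes. Genes were matched to GENCODE M21 (52489 of 52636). edgeR 4.0.16 (TMM, filterByExpr, glmQLFit, glmQLFTest; R 4.3.3) was fitted once on all 16 libraries with 1 coefficient per group, and p-values were Benjamini-Hochberg adjusted over 21371 genes and called under 0.1 with no fold cut-off. DESeq2 1.42.0 was an alternative. CPM are TMM-scaled. Length and GC trends per library were fitted with mgcv 1.9.3 (basis size 8). Replicates differed by far more than sampling noise (chi-square per gene 10.4 to 44.3). The fit was tested on simulated data. Named genes were, per comparison, the 5 called members of smallest p in each direction, and the 3 highest and 3 lowest per kilobase. Also named were P-stalk genes, paralogs and RP-named genes, and RP genes outside the symbol rule. From each other list, the 2 called genes of smallest p per comparison were added. Other genes named at the ends of ranges or as exceptions were chosen after values were seen. Some genes that the rule selects are counted but not reported by name here or drawn gene by gene. Members and lists were chosen with earlier results of these data known. The share, its subsets and lists carry no test. Errors are SDs over mice or SEs of the edgeR fit; the limit for a count of 0 covers counting error only.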

Additional observations from a re-analysis of the deposited data

Results flagged for a closer look

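In 3 of the 84 sets of 4 replicate values examined, 1 library lay far from the others of its group, and chance gives about 1 in 20. Rps13 was at 41.4 CPM in SNI-Saline replicate 2 and at 38.9 to 39.2 CPM in the other SNI-Saline libraries. Rpl3l was at 0.470 CPM in Sham-Saline replicate 1 and at 0.125 to 0.181 CPM in the others. Rplp0 was at 254 CPM in Sham-Saline replicate 2 and at 224 to 226 CPM in the others.

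The -ps rows that the symbol rule left out were not part of any comparison. They took 0.0489% ± 0.00382 (SD, n = 4) of gene reads in Sham-Saline and more in the other groups, with 0.0587% ± 0.00208 after SNI with saline, 0.0607% ± 0.00713 with DMI after sham and 0.0646% ± 0.00110 with DMI after SNI. This is the order of the RP genes themselves. These differences were not tested.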

How the results depend on the processing

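Under 14 alternatives and 16 fits without 1 library, none of the 30 called values of named genes changed sign, and 11 kept their call throughout. After injury, 64 RP genes were called higher. The number was 7 under the study's cut-offs (unadjusted p under 0.05, log2 fold change past 0.32 either way), 32 with the exon length trend removed (4.36% of all genes), 26 with GC content and exon length trends removed, and 7 with trends on representative transcripts removed, also when the curve was fitted without RP genes (medians 0.11 and 0.12). Without 1 library it was 15 to 74. With DMI after SNI, where 3 were called, the number was 0 under the study's cut-offs and 0 with any GC trend removed. It was 6 without a filter (0.714% of all genes) and 5 with at least 10 counts in every library (2.17%). DESeq2 called 19 higher (4.15%) and 1 lower, where it called 1012 of 21371 genes lower. The number called higher was 40 with the libraries of the comparison alone (4.42%), and 0 to 20 without 1 library. With DMI after sham, where 75 were called, it was 39 under the study's cut-offs and 35 or 36 with trends on representative transcripts removed (medians 0.14 and 0.15), and the median without 1 library was 0.28 to 0.41. The SNI-DMI share was 0.854% for core genes alone. Replicate numbers did not pair the samples: deviations of 24 same-numbered pairs had r of -0.0813 to 0.184, and 5 were over 0.1. With a replicate block, 49, 0 and 74 RP genes were called higher after injury, with DMI after SNI and with DMI after sham (4.71%, 0.402% and 10.7% of all genes), and 11, 0 and 61 with the block and both trends removed (2.88%, 0.0% and 9.11%). The causes of these differences were not tested. Depth did not limit the core genes, whose lowest count was 349 reads in any library, but Rpl3l, Rpl39l and Rpl10l had too few reads to compare.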
